A study of Homo sapiens with 6 samples.

Results

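Aminoacyl-tRNA synthetases, the enzymes that load each amino acid onto its transfer RNA (tRNA), were compared between Caco-2 cells after hypoxia/reoxygenation (H/R, 3 samples) and control Caco-2 cells (3 samples). Members were taken by symbol: a letter for the amino acid followed by ARS and nothing, 1 or 2, together with EPRS and EPRS1, where a name ending in 2 marks a mitochondrial enzyme. Of the 2257 rows of the deposited table, 8 members are described, 5 cytosolic (CARS1, GARS1, SARS1, TARS1 and WARS1) and 3 mitochondrial (FARS2, LARS2 and VARS2). RefSeq holds 35 protein-coding symbols of this form, 18 not ending in 2 and 17 ending in 2. The rule found 9 rows in the table, of which 1 is not reported here, so most of the family was absent from it. What is said of cytosolic and mitochondrial members covers the 8 described, and the others were not analysed here. The table lists selected rows, nearly all of them changed after H/R, so the contrast of H/R with control chose these members, and their changes are given as a description without a test.

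Caco-2 is an established human colorectal adenocarcinoma line used as a model of intestinal epithelium, labelled wild type in both groups. Control cells carried no treatment by their labels, and H/R cells had a low-oxygen incubation and then normal oxygen. The methods of the study give a fixed low-oxygen period and several reoxygenation times for Caco-2 cells. Which reoxygenation time applies to these samples is not stated. The methods of the study describe sequencing of H/R Caco-2 cells that had a control or a gene-targeting siRNA, while the labels of these samples name no siRNA, so whether these H/R cells were transfected is uncertain, and any effect of transfection cannot be told apart from that of H/R. The sources used here do not state whether the 3 samples of a group were separate cultures, so the spread reported may be technical. Levels are in FPKM (fragments normalised for transcript length and sequencing depth), a unit per length that allows levels to be compared between genes. A change is the mean log2(FPKM + 1) of H/R less that of control, with the standard error (SE) of a limma fit over 2033 rows. In bulk samples such as these, less RNA per cell and fewer cells of a kind cannot be told apart.

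Cytosolic synthetases charge the tRNAs used by ribosomes of the cytosol, and mitochondrial synthetases, encoded in the nucleus and imported, charge those of the mitochondrial ribosome, which makes core subunits of the respiratory chain. Many cytosolic synthetase genes are known targets of ATF4, the transcription factor of the integrated stress response. ATF4 binds DNA as a dimer with C/EBP proteins at a composite element with the core letters TGATGNAA, where N is any base. Glycine is an exception to the division by compartment, because GARS1 encodes both the cytosolic and the mitochondrial enzyme. By its name GARS1 is counted here with the cytosolic genes in every median, sum and difference, so these do not separate the compartments fully.

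The promoters of members that moved together are shown because this core could be looked for in them. RefSeq windows on GRCh38.p14 run from 250 bases before to 50 bases after each start site, with the start site at base 251, and 7 of the 8 genes had at least 1 window. The core was searched as TGATGNAA and on the other strand as TTNCATCA, and no stretch can match both forms at once. It was present in a window of 3 of the 5 cytosolic genes (CARS1, TARS1 and GARS1), not of SARS1 or WARS1, and in 0 of the 2 mitochondrial genes with a window (FARS2 and LARS2). Among all 27305 genes with a window, 4.46% held it. Genes differ in their number of windows, and counted by window it was in 3 of 13 windows of the members and in 3.62% of all 35116. With so few genes, nothing is read from these shares. Capitals mark the match in the windows below, printed in the direction of transcription, and LARS2 is shown as a mitochondrial member without one.
CARS1 chr11:3057374-3057673 (minus strand): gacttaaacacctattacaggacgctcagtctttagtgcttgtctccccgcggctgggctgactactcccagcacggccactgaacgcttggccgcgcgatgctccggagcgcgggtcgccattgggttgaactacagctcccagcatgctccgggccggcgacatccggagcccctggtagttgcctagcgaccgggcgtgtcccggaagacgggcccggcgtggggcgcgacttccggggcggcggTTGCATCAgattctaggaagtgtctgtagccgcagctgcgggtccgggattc
TARS1 chr5:33440715-33441014 (plus strand): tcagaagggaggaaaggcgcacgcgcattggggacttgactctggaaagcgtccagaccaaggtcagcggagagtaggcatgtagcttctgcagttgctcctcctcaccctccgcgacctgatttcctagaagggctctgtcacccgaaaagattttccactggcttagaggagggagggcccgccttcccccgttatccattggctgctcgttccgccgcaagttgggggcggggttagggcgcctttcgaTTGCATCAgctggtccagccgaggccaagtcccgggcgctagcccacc
GARS1 chr7:30594628-30594927 (plus strand): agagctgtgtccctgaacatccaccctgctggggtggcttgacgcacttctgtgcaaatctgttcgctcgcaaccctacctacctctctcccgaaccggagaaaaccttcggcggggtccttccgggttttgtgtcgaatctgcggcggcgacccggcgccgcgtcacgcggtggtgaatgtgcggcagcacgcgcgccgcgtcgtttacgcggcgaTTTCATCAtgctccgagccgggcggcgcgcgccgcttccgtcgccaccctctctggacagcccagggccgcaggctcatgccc
LARS2 chr3:45388326-45388625 (plus strand): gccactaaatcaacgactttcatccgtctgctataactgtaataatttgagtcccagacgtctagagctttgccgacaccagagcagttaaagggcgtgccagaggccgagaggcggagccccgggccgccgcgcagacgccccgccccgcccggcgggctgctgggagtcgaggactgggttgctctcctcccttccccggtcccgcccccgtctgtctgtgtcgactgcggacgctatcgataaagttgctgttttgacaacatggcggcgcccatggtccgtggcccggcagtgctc
The match lay at bases 249 to 256 in CARS1, at bases 253 to 260 in TARS1 and at bases 218 to 225 in GARS1. A match is a description of the letters and not of binding.

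The 5 cytosolic synthetases described were higher after H/R than in control on average, by 1.07 to 1.61 on the log2 scale (median 1.29), and the 3 mitochondrial ones were lower, with changes of -1.09 to -0.77 (median -0.94). Over all 2033 rows the median change was -0.80, over the 937 rows that rose (limma, adjusted p under 0.05) it was 1.19, and over the 1075 that fell it was -1.17. The 3 H/R libraries lay above the 3 control libraries without overlap in 5 of 5 cytosolic genes, against 42.6% of all rows, and below them in 3 of 3 mitochondrial genes, against 52.0%. Without regard to direction, 94.6% of all rows did not overlap between the groups and 99.0% passed limma's test, and nothing is read from these counts, since the rows were selected on the same contrast.

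GARS1, the glycyl-tRNA synthetase gene, had the highest level and, with values as deposited, the largest change of the 8. Control libraries held 53.5, 68.2 and 69.0 FPKM, here and below in the order of replicates 1 to 3, and H/R libraries 212, 185 and 188 FPKM (63.5 ± 8.74 against 195 ± 14.9, SD, n = 3). The ratio of means was 3.07 and the change 1.61 ± 0.17 (SE). Every H/R library was well above every control library, and 19.1% of the rows that rose had a larger change.

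CARS1, which charges tRNA with cysteine, had 27.4, 35.8 and 31.3 FPKM in control and 103, 84.1 and 76.8 FPKM after H/R. With values as deposited, its change of 1.45 ± 0.19 (SE) was the second of the 8 in size. CARS1 had the lowest control level of the cytosolic members (31.5 ± 4.21 FPKM, SD, n = 3). H/R brought it to 88.1 ± 13.7 FPKM, a ratio of 2.80. The groups were clearly apart, with H/R replicate 1 the highest library.

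WARS1, the tryptophan enzyme, which is also known as an interferon-inducible gene, had 32.4, 39.1 and 35.8 FPKM in control. After H/R it had 117, 77.0 and 75.5 FPKM, a change of 1.28 ± 0.21 (SE). SARS1, which charges both serine and selenocysteine tRNAs, had 52.4, 68.6 and 60.7 FPKM in control and 157, 117 and 112 FPKM after H/R, a change of 1.07 ± 0.19 (SE). In both genes, as in CARS1 and GARS1, replicate 1 was the highest of the H/R libraries and the lowest of the control libraries, and the groups did not overlap.

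TARS1, the threonine enzyme, differed from the other cytosolic genes in its spread. It had 31.5, 43.1 and 71.5 FPKM in control and 94.7, 114 and 136 FPKM after H/R (change 1.29 ± 0.28, SE). Its groups did not overlap, but its control libraries lay farther apart than those of the others. In control its highest library was 2.27 times the lowest, against 1.21 to 1.31 times in the other cytosolic genes.

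**Figure D1:**
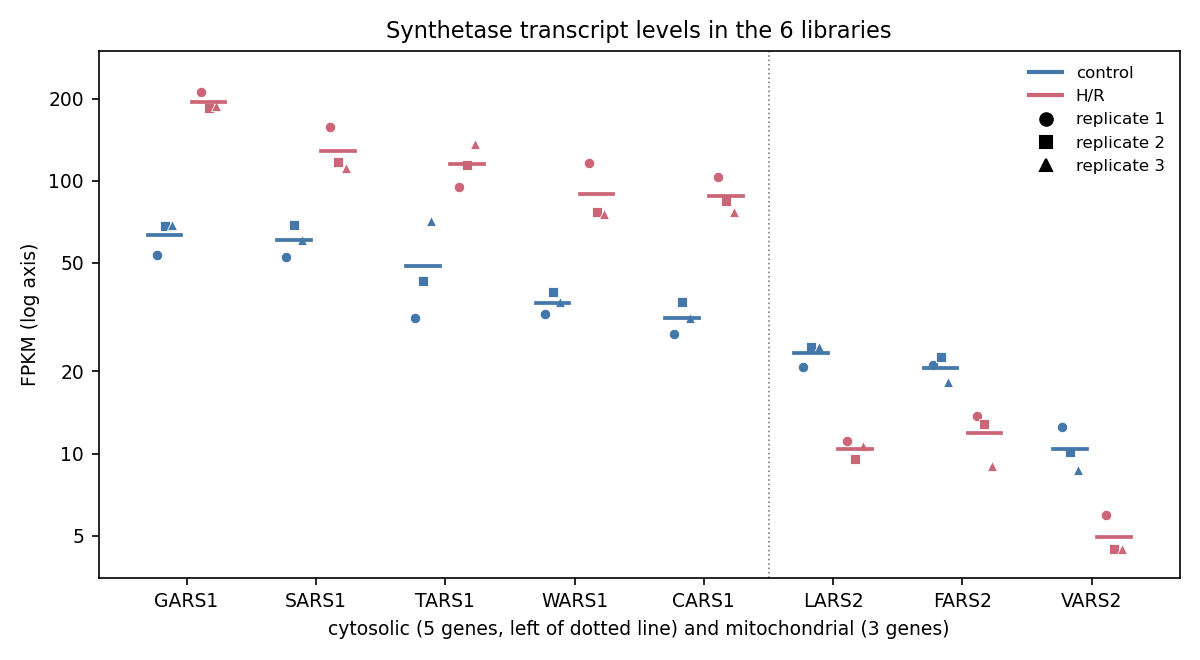
FPKM on a log axis for the 8 synthetase genes, with 1 point per library (blue control, red H/R, shape by replicate) and a bar at each group mean. The H/R points sit above the control points in the 5 cytosolic genes, with TARS1 spread from 31.5 to 71.5 FPKM in control, and below them in the 3 mitochondrial genes.

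LARS2, the mitochondrial leucyl-tRNA synthetase gene, had the largest change of the mitochondrial members. It had 20.8, 24.6 and 24.5 FPKM in control and 11.1, 9.53 and 10.6 FPKM after H/R (23.3 ± 2.15 against 10.4 ± 0.799, SD, n = 3). The ratio of control to H/R was 2.24 and the change -1.09 ± 0.19 (SE). The libraries of each group lay close together and the groups far apart.

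VARS2, the mitochondrial valine enzyme, had the lowest level of the 8, with 12.5, 10.1 and 8.67 FPKM in control. After H/R it had 5.96, 4.46 and 4.45 FPKM, a change of -0.94 ± 0.22 (SE). VARS2 stood in the table as 2 rows with the same values in all 6 libraries, the other numbered as a further copy of the gene, so reads may have been shared between copies and its level is uncertain.

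FARS2, the mitochondrial phenylalanine enzyme, had 21.1, 22.5 and 18.3 FPKM in control and 13.7, 12.9 and 8.99 FPKM after H/R. With values as deposited, its change of -0.77 ± 0.22 (SE) was the smallest of the 8, and 95.9% of the rows that fell had a larger one. The groups did not overlap, but the highest H/R library and the lowest control library were separated by less in FARS2 than in LARS2. LARS2 was exceeded by 61.9% of the rows that fell and VARS2 by 84.6%.

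The directions of the 8 changes held under both rescalings of the table, while their sizes did not. Rescaling to equal totals raised H/R relative to control by a log2 factor of 0.35, and median-of-ratios scaling by 0.52, and the median change of all rows went to -0.54 and -0.40. The change of GARS1 became 1.96 and 2.12, that of LARS2 -0.76 and -0.60, and that of FARS2 -0.44 and -0.28. Both factors were computed on selected rows and not on all genes of the samples.

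**Figure D2:**
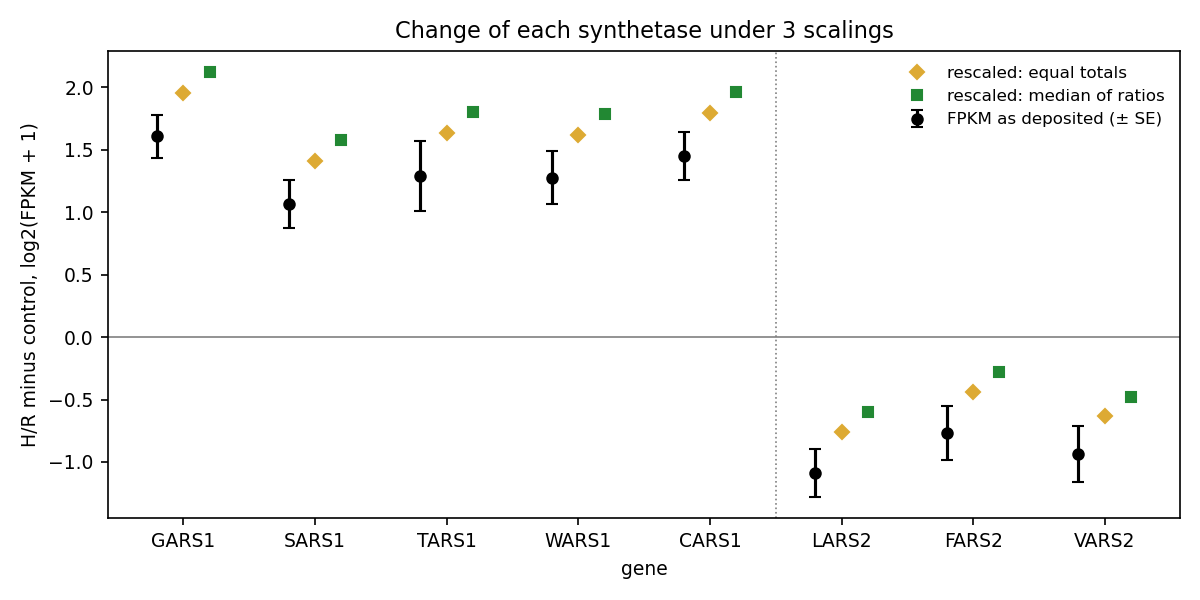
Change of each synthetase after H/R in log2(FPKM + 1), with FPKM as deposited (black, ± SE) and after 2 rescalings of the table. The cytosolic values lie between 1.07 and 2.12 and the mitochondrial values between -1.09 and -0.28 over the 3 scalings.

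A difference taken within a library moves little with its scaling. The mean log2(FPKM + 1) of the 5 cytosolic genes minus that of the 3 mitochondrial genes was 1.06, 1.41 and 1.62 in control replicates 1, 2 and 3 and 3.62, 3.58 and 3.70 in the H/R replicates. Its group means were 1.36 ± 0.28 and 3.63 ± 0.061 (SD, n = 3), a difference of 2.27, which was 2.29 with equal totals and 2.30 with median-of-ratios scaling. In FPKM, the cytosolic genes summed to 240.1 ± 37.8 in control and 616 ± 58.9 after H/R, and the mitochondrial genes to 54.4 ± 2.83 and 27.2 ± 3.35. The sum of the cytosolic genes was 2.57 times as high after H/R, and that of the mitochondrial genes was 2.00 times as high in control. These sums and ratios are of FPKM as deposited and, unlike the within-library difference, they move with the scaling. The cytosolic sum includes GARS1, which encodes both enzymes, and the mitochondrial sum counts VARS2 once, at its uncertain level.

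**Figure D3:**
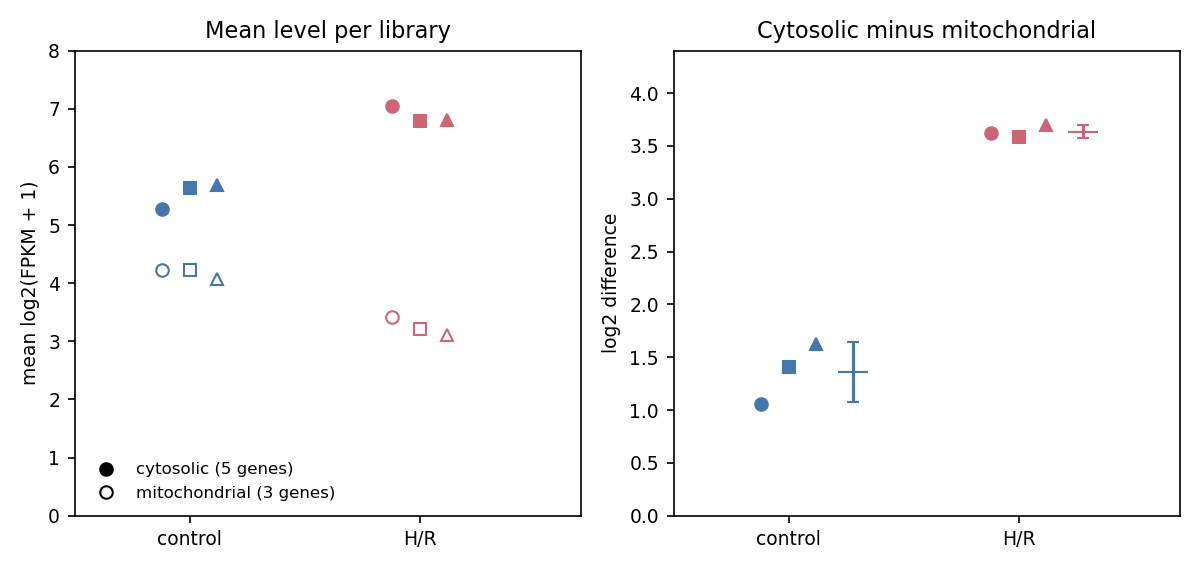
Left, the mean log2(FPKM + 1) per library over the 5 cytosolic genes (filled) and the 3 mitochondrial genes (open), and right, their difference per library with the group mean ± SD. The difference lies between 1.06 and 1.62 in the control libraries (blue) and between 3.58 and 3.70 in the H/R libraries (red).

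Already in control, the listed level of each cytosolic member was above that of each mitochondrial member in every library. The lowest cytosolic levels in control replicates 1, 2 and 3 were 27.4, 35.8 and 31.3 FPKM, and the highest mitochondrial ones 21.1, 24.6 and 24.5 FPKM. The order by mean in control was GARS1, SARS1, TARS1, WARS1, CARS1, LARS2, FARS2 and VARS2. Neighbours in this order overlapped over libraries, except that CARS1 stood clear of LARS2 and FARS2 clear of VARS2. After H/R the first 5 places were the same and FARS2 stood before LARS2, with overlap between them, and GARS1 stood clear of SARS1. VARS2 stood in the table more than once with the same values, so its level and its place here are uncertain.

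In replicates 1 and 3 of both groups, TARS1 deviated from its group mean in the same direction as rows of like GC content. Whether GC content had a part in its spread was not tested. Rows of the table were shifted from their group mean, per 10 points of GC, by a log2 value of 0.26 in control replicate 1 and of -0.25 in control replicate 3, and by 0.15 and -0.12 in H/R replicates 1 and 3. The longest coding transcript of TARS1 has 43.6% GC, the lowest of the 8, and those of the other members have 48.6% (GARS1) to 60.2% (VARS2). TARS1 deviated by -0.53 in control replicate 1 and by 0.62 in control replicate 3, where the medians of 266 rows within 2 points of its GC were -0.41 and 0.39. In H/R replicates 1 and 3 it deviated by -0.26 and 0.26, and those rows by -0.25 and 0.16. This was not particular to TARS1. In control replicates 1 and 3, GARS1 deviated by -0.24 and 0.13 (rows near its GC by -0.24 and 0.18). VARS2 deviated there by 0.26 and -0.23 (rows near its GC by 0.14 and -0.16). In H/R replicate 1, GARS1 went the other way from its rows (0.12 and -0.09). WARS1 deviated by 0.41 in H/R replicate 1, where the 238 rows near its GC had a median of -0.01.

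GC content also differed between the compartments and between rows that rose and fell. It ran from 43.6% to 53.1% in the cytosolic and from 50.8% to 60.2% in the mitochondrial members, and its median was 46.0% over the rows that rose and 56.5% over the rows that fell. With the linear trend of change on GC removed (-0.59 for each 10 points), the cytosolic median was 1.27, the mitochondrial median -0.57 and the within-library difference of the compartments 1.93. Under this adjustment the change of TARS1 was 0.79 and that of VARS2 -0.45, and no member changed direction. The order by size did change. CARS1 (1.52) then had a larger change than GARS1 (1.41), and FARS2 (-0.57) a larger one than VARS2. The trend comes from rows selected for change and holds whatever the treatment itself did, and the part of GC content in these results was not tested.

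**Figure D4:**
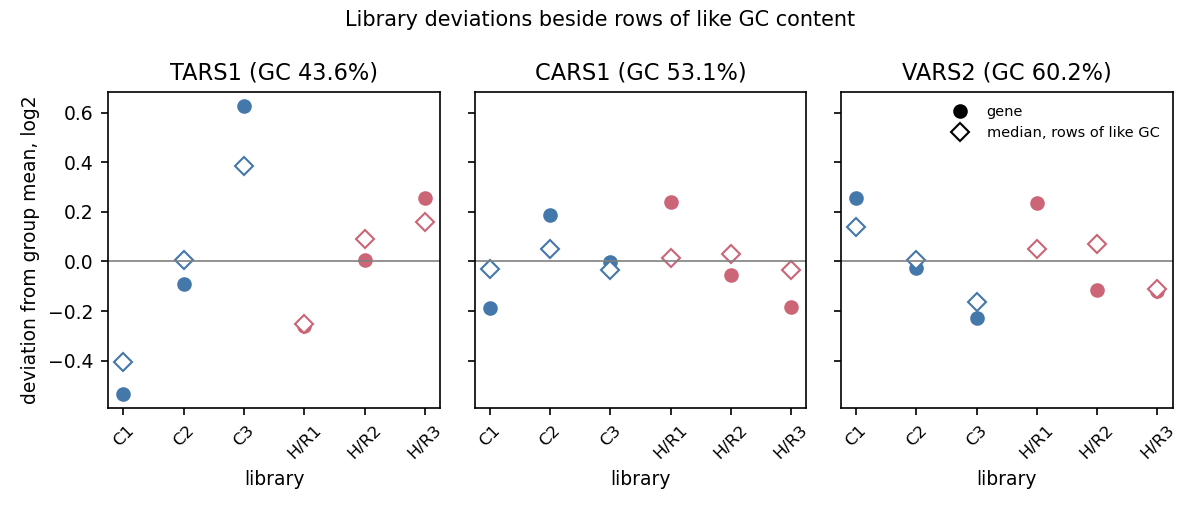
Deviation of each library from its group mean on the log2 scale for TARS1, CARS1 and VARS2 (filled) beside the median deviation of rows within 2 points of the gene's GC content (open), with control libraries C1 to C3 in blue and H/R libraries in red. TARS1 runs from -0.53 to 0.62 and its rows of like GC from -0.41 to 0.39, while CARS1 stays between -0.19 and 0.24 and VARS2 between -0.23 and 0.26.

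Genes next to the synthetases in the pathway were examined in 6 lists of 96 genes, of which 25 were in the table. There 21 rose and 4 fell (limma, adjusted p under 0.05), against 46.1% of all rows that rose and 52.9% that fell. The lists were written with earlier results of these data known. In either direction 99.0% of all selected rows passed, so nothing is read from the calls of listed genes. Of 13 partners of the synthetases, such as the AIMP scaffolds of the multi-synthetase complex and the FARSA and FARSB subunits, 1 was in the table. This was GATB, a subunit of the mitochondrial amidotransferase that makes glutaminyl-tRNA, which fell from 27.2 ± 1.64 to 10.7 ± 1.05 FPKM (SD, n = 3), a change of -1.27 ± 0.19 (SE). None of 25 listed genes of mitochondrial translation and tRNA modification, a list without the mitochondrial ribosomal proteins, was in the table, and 1 of 9 genes of cytosolic elongation was, EIF5A2, the less common form of the factor eIF5A, which rose by 1.35 on the log2 scale.

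The lists of genes that supply amino acids had more genes in the table than the lists above. The table holds selected rows and the lists were written with earlier results known, so nothing is read from these numbers. Of 14 listed transporters, 7 were in the table and these 7 rose (by 1.15 to 2.21 on the log2 scale), led by SLC38A2, a neutral amino acid transporter (42.3 ± 15.7 to 194 ± 39.0 FPKM). SLC7A1, which imports arginine and lysine, rose from 35.4 ± 4.96 to 111 ± 28.0 FPKM, and SLC7A11, the cystine transporter, from 2.31 ± 0.617 to 9.83 ± 2.89 FPKM. SLC38A1 rose by 1.66. SLC6A9, which carries the substrate of GARS1, and SLC1A4, which carries that of SARS1 among others, rose by 1.15 and 1.32. Of 17 genes of amino acid synthesis, the table held 5, with 3 that rose and 2 that fell. The asparagine synthetase gene ASNS rose from 39.1 ± 6.56 to 142 ± 34.4 FPKM, the serine synthesis gene PSAT1 by 1.11 and CTH, which makes cysteine, by 1.21. SHMT1, which interconverts serine and glycine, fell from 53.0 ± 5.95 to 22.5 ± 2.08 FPKM, and the glutamine synthetase gene GLUL from 457 ± 53.5 to 227 ± 22.6 FPKM.

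Of 18 listed genes of the ATF4 branch, the table held 11, with 10 that rose and 1 that fell (median 1.31), and the gene ATF4 itself was not analysed here. The largest changes were those of ATF3 (3.06), DDIT4 (2.34) and CHAC1 (2.25), and NUPR1 fell by 1.47. EIF2AK3, which encodes the ER stress kinase PERK, changed by 0.98 ± 0.34 (SE, limma adjusted p = 0.017), and its groups overlapped. Its call ended in each fit that left out control replicate 1, control replicate 2, H/R replicate 2 or H/R replicate 3 (adjusted p = 0.053 to 0.074) and with an ordinary linear model (0.098), and the lowest adjusted p over its alternatives was 6.76e-04.

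**Figure D5:**
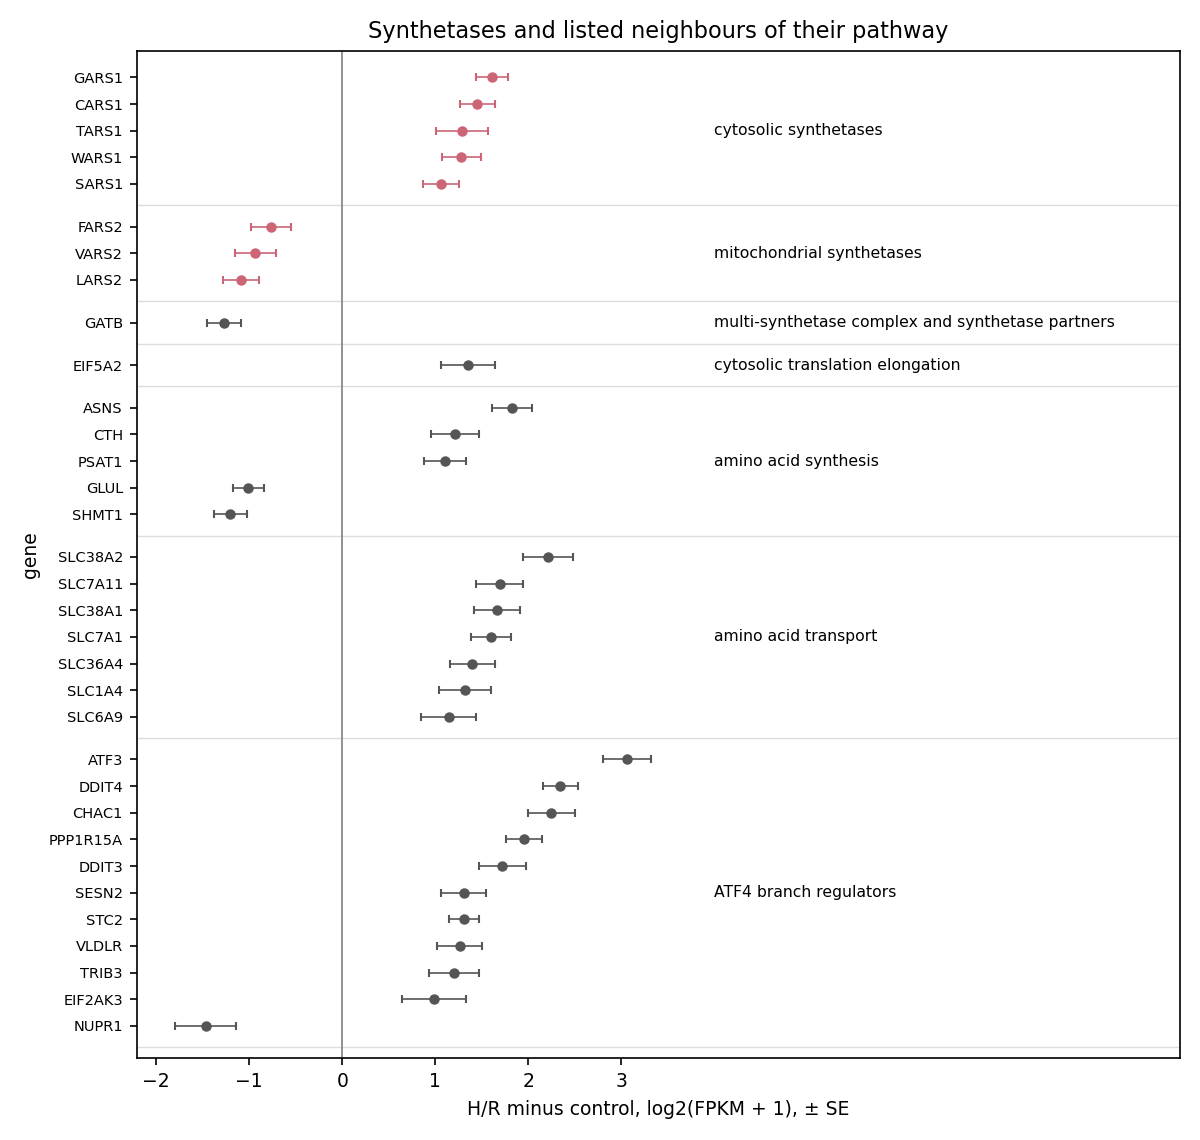
Change after H/R in log2(FPKM + 1), ± SE, for the 8 synthetases (red) and the 25 listed pathway genes in the table (grey), ordered by size within each list. The cytosolic synthetases lie between 1.07 and 1.61 and the transporters between 1.15 and 2.21. GATB lies at -1.27 and the mitochondrial synthetases between -1.09 and -0.77. Over all rows, the median change was 1.19 among those that rose and -1.17 among those that fell.

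The rows most like each member were found by the root mean square distance over the 6 libraries between log2 profiles centred on the control mean, among 1956 other rows. CARS1 was nearest to PGK1, a glycolytic enzyme gene (distance 0.061), then MGLL and MTHFD1L, and GARS1 to CD44 and SPRY2 (0.10 for both). WARS1 was nearest to SOX8, ULBP2 and GRB10 (0.11 to 0.12), and SARS1 to RBMS2, PREP and IL1R2 (0.076 to 0.097). TARS1 was nearest to WAC, SLC25A24 and NFE2L2 (0.058 to 0.074).

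Among the mitochondrial members, VARS2 was nearest to TMEM147 (0.035), then TMEM161A and NDUFB10, a subunit gene of respiratory complex I. LARS2 was nearest to PCDHGB5 (0.055), then the mitochondrial ribosome gene MRPL40 and TPP1, and FARS2 to MTRES1, DPM3 and a numbered copy of SLC2A6 (0.094 to 0.11). Between members, CARS1 and GARS1 were the nearest pair (0.15). FARS2 and VARS2 were nearest to each other (0.21), and TARS1 was farther from its nearest member, GARS1 (0.39). These distances share the 6 libraries and largely the size of the change, and they carry no test.

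Markers of cell types were looked up beside the label of the cells. The table lists selected rows, nearly all of them changed, so markers that did not change could be missing. The lookup therefore cannot decide the label. Of 14 intestinal epithelial markers, 5 were in the table, with levels that summed to 7004 to 8313 FPKM in control libraries and 2643 to 3088 FPKM after H/R, most of it APOA1. APOA1, FABP1 and ALPI fell (limma, adjusted p under 0.05). The other 2 were too low to be tested, SI with means of 1.38 FPKM in control and 0.480 FPKM after H/R, and KRT20 with 0.323 and 1.54 FPKM. The 20 markers of other cell types were those of immune, endothelial, mesenchymal and secretory cells. Of these, 6 were in the table (CD14, ESAM, COL1A1, PDGFRA, MUC2 and TFF3). They summed to 259 to 456 FPKM in control and 130 to 180 FPKM after H/R, most of it the secretory gene TFF3. TFF3, CD14 and COL1A1 fell, while ESAM rose by 1.07 and PDGFRA by 1.51 on the log2 scale. MUC2, a numbered copy that was too low to be tested, was listed at 0, 0.01 and 0.01 FPKM in control and at 0.35, 0.22 and 0.20 FPKM after H/R. Their part in the synthetase results was not tested.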

How the data were processed

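Libraries of poly(A) RNA from Caco-2 cells (3 control, 3 H/R) were read from both ends over 150 bp, with groups and replicate numbers taken from the sample titles. The authors deposited 1 table of log2 values, log2(FPKM + 1), since 2 to the power of each value, less 1, was a whole number of 0.01 FPKM steps in 100% of cases (tolerance 1e-05 FPKM). The aligner, the counting and how rows were selected: not given in the sources used here. GRCm38 and mm10, both of mouse, stand in the submitters' processing notes although the symbols are human, so the build of the table is unknown, and the printed coordinates are those of RefSeq promoters on GRCh38.p14. With no counts in the table, the depth of each library is unknown. The group means differed by 2-fold or more in 92.2% of the 2234 rows that had both means above 0.

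Of 2188 rows with a symbol, 6 did not match RefSeq. Identical copies of a symbol (51 rows) were counted once, and the 2033 of 2206 remaining rows with a mean of at least 1 FPKM were tested with limma 3.58.1 in R 4.3.3 (group only, mean-variance trend, two-sided, Benjamini-Hochberg threshold 0.05). A pseudocount of 1 understates changes of low genes. GC content is that of the longest coding GENCODE v29 transcript. Members, lists and tests were chosen with earlier results of these data known. The rule found 9 rows, of which 1 is not reported here and enters no summary of the members, and 1 nearest row is likewise left out. The other 8 members are named, with up to 3 nearest rows of each and up to 4 genes per list by size of change, or all where a list had 5 or fewer in the table. SLC6A9, SLC1A4, NUPR1 and EIF2AK3 were named after their values were seen. Alternatives were the FPKM minimum, the pseudocount, both rescalings, a replicate block, copies kept, an ordinary linear model and each library left out. The GC trend and leaving out both replicates 1 or both replicates 3 were added after seeing the data.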

Additional observations from a re-analysis of the deposited data

How the results depend on the processing

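No member changed direction under any alternative run. The cytosolic median change went from 1.29 to 1.63 with equal totals and 1.80 with median-of-ratios scaling, and the mitochondrial median from -0.94 to -0.63 and -0.48. Removing the GC trend, chosen after seeing the data, moved the mitochondrial median to -0.57 and the within-library difference of the compartments from 2.27 to 1.93. Leaving out 1 library at a time gave 2.12 to 2.40 for that difference, 1.21 to 1.45 for the cytosolic median and -1.05 to -0.81 for the mitochondrial median. TARS1 ranged from 1.02 without control replicate 1 to 1.60 without control replicate 3. Leaving out both replicates 1, added after seeing the data, lowered the cytosolic median to 1.15. CARS1 then changed by 1.24, WARS1 by 1.01, SARS1 by 0.81 and GARS1 by 1.43, each less than with all libraries. The mitochondrial median was -0.93 and the within-library difference 2.12. Without both replicates 3 these were 1.47 for the cytosolic median, -0.99 and 2.36. The count of rows called went from 2012 to 1793 with median-of-ratios scaling and 1797 with an ordinary linear model, and 1949 to 2002 with 1 library left out. Of the 25 listed genes, 24 or 25 passed in every fit, and EIF2AK3 was the gene that lost its call. The correlation of deviations was 0.50, 0.072 and 0.52 for replicate numbers 1, 2 and 3, and 5 of 6 libraries correlated best with their own number. Control and H/R libraries also shared the sign of their shift per 10 points of GC in number 1 (0.26 and 0.15) and number 3 (-0.25 and -0.12). Pairing was not separated from that shift. The numbers were not treated as pairs, because number 2 lay below the 0.1 asked of every pair. With the number as a replicate block, 2027 rows and 25 listed genes passed, the cytosolic median stayed at 1.29, the mitochondrial median at -0.94 and the within-library difference at 2.27. Depth is unknown, so no limit of detection can be given.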

Other observations

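A further row of the table carried the name of CARS1 with the number of a second copy. Its levels were low, and the groups overlapped. Control libraries held 1.37, 0.730 and 1.39 FPKM and H/R libraries 1.07, 2.30 and 4.58 FPKM, each in the order of replicates 1 to 3. The values differed from those of the CARS1 row, which lay between 27.4 and 103 FPKM.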
